A study of Mus musculus with 8 samples.

Results

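The 10 integrin subunit genes described here were those on a named list that the array table paired with a single gene symbol, out of 6855 genes measured. They were Itga3, Itga7 and Itgb4 (laminin receptors), Itga5, Itga2b and Itgb3 (receptors for the RGD sequence), Itga1 and Itga2 (collagen receptors), and Itgb2 and Itgb7 (leukocyte subunits). Each was read by 1 probe set, and they lie on mouse chromosomes 10, 11, 13 and 15. Integrins are cell-surface receptors made of an alpha and a beta chain that bind the extracellular matrix, or partner cells, and couple it to the actin cytoskeleton. The chains largely set the ligand: laminin, the RGD sequence of fibronectin and related proteins, collagen, or counter-receptors on other cells. Neural crest cells, the migratory embryonic cells that give rise to glia, melanocytes and peripheral neurons, crawl on matrix through integrins. In mouse the common beta chain Itgb1 is needed for crest cells to colonise the whole gut and for Schwann cells to develop.

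The cultures came from mouse embryos at embryonic day 9.5 that were either Sox10 Dom/Dom, homozygous for a frameshift allele of the crest transcription factor gene Sox10 that every cell carries, or wild type. There were 4 arrays of either genotype, with replicate numbers 1 to 4. Neural tube from below somite 24 was explanted in medium with 10% serum, the explant was removed after 24 hours, and RNA was taken from the cells that had crawled out. The labels do not say whether replicates came from separate embryos or litters. The p-values therefore describe how these arrays vary, and part of that variation may be technical. Levels are log2 values, and a difference is the Dom/Dom mean less the wild-type mean.

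The neural crest label was checked against 9 measured markers, all of which stood above 8.13, the level that 95% of 258 olfactory, vomeronasal and trace amine receptor genes stayed below. Of the 9, 2 fell in Dom/Dom cultures, Sox10 itself (difference -1.20, limma adjusted p = 0.0168) and the neuregulin receptor gene Erbb3 (-1.57, adjusted p = 0.0214). With the replicate number as a block 3 fell, and with limma's array weights 5 fell. The calls of Sox10 and Erbb3 were lost when any 1 array of replicates 3 or 4 was left out, with adjusted p up to 0.0762 for Sox10 and 0.0862 for Erbb3. Since Dom is a frameshift and not a deletion, the Sox10 level alone does not check the genotype labels. By the same yardstick 8 of the 10 integrin subunits were above 8.13 on average, as were 4701 of the 6855 genes, and the leukocyte subunits Itgb2 and Itgb7 were below it. Probe sets differ in brightness for reasons other than RNA amount, so levels are not set against each other between genes. In such bulk cultures, fewer cells of a type and less RNA per cell cannot be told apart.

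No integrin subunit passed the test between the genotypes. Of the 10, 0 had a limma adjusted p under 0.05, beside 0.481% of all 6855 genes (33 genes, 5 higher and 28 lower). With the replicate number as a block the count was also 0 of 10, beside 1.50% of all genes. With array weights, which count arrays with larger residuals less, it was 0 of 10 beside 2.77% of all genes. The weights ran from 0.44 to 0.68 for replicates 1 and 2 and from 1.01 to 2.76 for replicates 3 and 4. Calls with array weights therefore lean on replicates 3 and 4. Of the 10, 0 had Dom/Dom and wild-type groups that did not overlap, beside 3.78% of all genes. At an unadjusted limma p under 0.05 there was 1 of 10, Itga2, beside 419 of all 6855 genes. With the block there were 4 of 10 at that level, Itga1, Itga2, Itga3 and Itgb4, beside 950 of all 6855 genes. Differences ran from -0.22 for Itga2 to 0.28 for Itga3, with a median of 0.03, against -0.0009 over all genes. The median size of the difference, whatever its sign, was 0.16 for the integrins and 0.06 for all genes. Exact two-sided permutation tests of the 10 subunits gave unadjusted p between 0.0571 and 0.971, where 0.0286 is the smallest that 4 against 4 arrays allow.

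The genotype difference varied with the replicate number, and replicates 1 and 2 each stood apart for several subunits. Same-numbered arrays deviated together from their genotype means over all genes (correlations of 0.465, 0.577, 0.607 and 0.668 for replicates 1 to 4), so the numbers were read as pairs. The median difference over the 10 integrins was -0.10 in pair 1, 0.29 in pair 2, 0.04 in pair 3 and 0.02 in pair 4, beside medians between -0.01 and 0.02 over all genes. Pair 2 was thus the farthest from 0. Itga2 (0.11) and Itgb3 (0.32) were higher in Dom/Dom in pair 2 alone. Without pair 2 the median difference of the 10 was -0.01. When pair 1 was left out of the blocked fit, a choice made after seeing the data, 4 of the 10 subunits passed, beside 6.93% of all genes. Itga1, Itga3 and Itga5 rose and Itgb4 fell. With the block and pair 2, 3 or 4 left out instead, 0 of 10 passed. Without pair 1 and without a block, 0 of 10 passed.

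**Figure D1:**
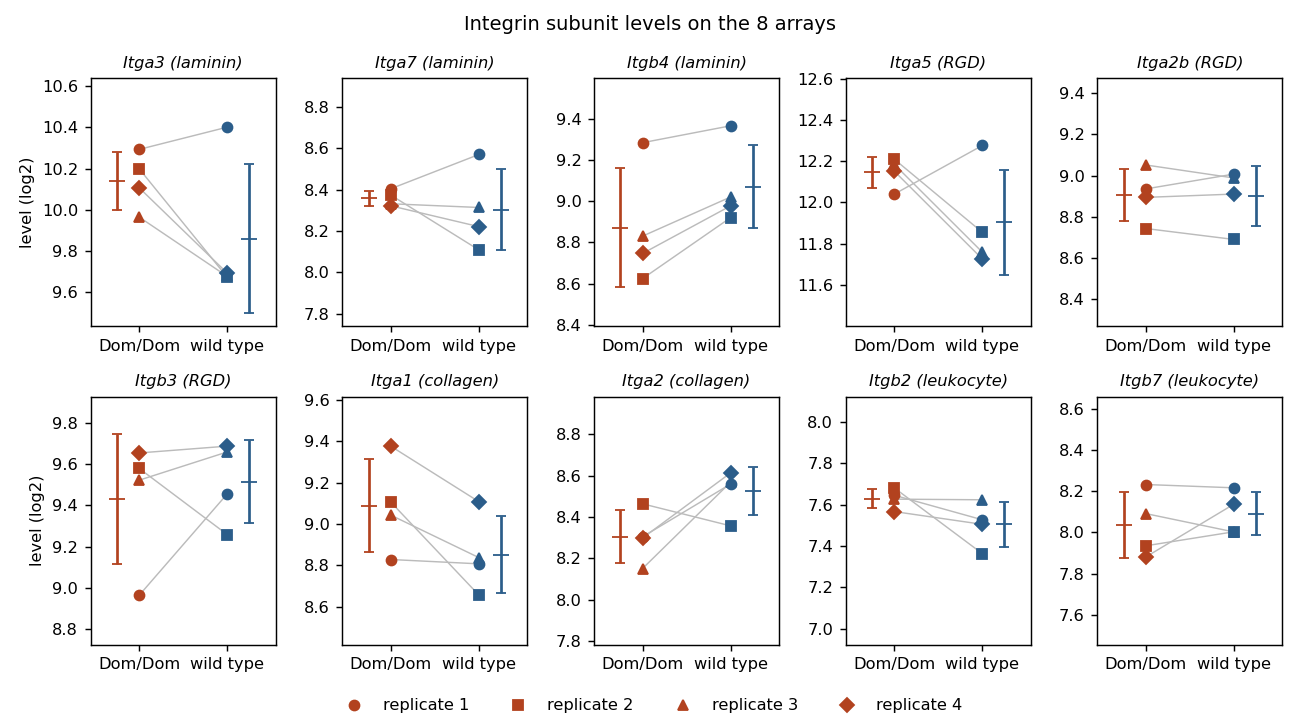
Level (log2) of each integrin subunit on the 4 Dom/Dom and 4 wild-type arrays, with same-numbered arrays joined by a grey line and the mean ± SD of each genotype at the side; every panel spans 1.2 log2 units. Wild-type replicate 1 stands at 10.40 for Itga3, above the other wild-type arrays at 9.67 to 9.69, and the genotypes overlap for all 10 genes.

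Promoter sequence was looked at for Itga3 and Itga5, whose levels correlated over the 8 arrays (r = 0.860). Within Dom/Dom they did not run together: replicate 1 was the highest array for Itga3 and the lowest for Itga5. RefSeq windows of assembly GRCm38.p6 were matched by gene ID for 6 of the 10 subunits. Motif results are given here for Itga1, Itga2, Itga2b, Itga3 and Itga5 alone. The bases shown are those before the annotated gene, 5′ to 3′ on the gene's strand, chr11:95076845-95076964 (minus strand) for Itga3 and chr15:103366792-103367041 (minus strand) for Itga5. Capitals mark GGGCGG, the GC box bound by Sp-family factors, or its reverse complement, and ACAAT, a core of the SOX motif, searched on both strands with no overlap between them here.
Itga3: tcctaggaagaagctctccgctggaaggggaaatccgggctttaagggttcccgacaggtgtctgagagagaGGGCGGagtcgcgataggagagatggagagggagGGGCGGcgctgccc
Itga5: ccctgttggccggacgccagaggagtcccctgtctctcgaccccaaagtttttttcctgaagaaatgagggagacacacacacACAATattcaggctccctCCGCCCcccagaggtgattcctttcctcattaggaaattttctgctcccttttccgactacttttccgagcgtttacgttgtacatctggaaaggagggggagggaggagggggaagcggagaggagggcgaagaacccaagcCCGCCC

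Each window held 2 GC boxes, a motif found in 12.5% of 27025 promoter windows of 120 bases and in 32.9% of those of 250 bases. The ACAAT of Itga5 sits at the end of a CA repeat, and 28.3% of 250-base windows hold ACAAT. The longer SOX form ACAAAG, the AP-1 motif TGANTCA and the CArG box of serum response factor had 0 matches in either window. In windows of 250 bases these occur in 16.5%, 6.9% and 1.4% of promoters, and in windows of 120 bases in 8.4%, 3.2% and 0.6%. The 250-base windows of Itga1, Itga2 and Itga2b, not shown, had 0 matches to these motifs, to ACAAT and to the GC box. Matches of letters describe these windows and say nothing of which factors bind them.

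Among the laminin receptor chains, Itga3, which pairs with Itgb1 and binds the laminins of epithelial and vascular basement membranes, had the widest spread of the 10 over the arrays. Its level was 10.29, 10.20, 9.96 and 10.11 in Dom/Dom replicates 1 to 4, against 10.40, 9.67, 9.68 and 9.69 in wild-type replicates 1 to 4. All Dom/Dom arrays lay above wild-type replicates 2, 3 and 4 and below wild-type replicate 1. The difference was 0.28 ± 0.16 (SE; 95% interval from -0.08 to 0.64; limma adjusted p = 1.00, or 0.298 when blocked). In the pairs it was -0.11 in pair 1 and 0.53, 0.29 and 0.41 in pairs 2, 3 and 4. Without wild-type replicate 1 it was 0.46 (limma adjusted p = 0.0818, no block). Without pair 1, with the block, a fit added after seeing the data, it was 0.41 ± 0.06 (SE; limma adjusted p = 0.0167). That is 1.33-fold higher in Dom/Dom, against 1.21-fold over all 8 arrays.

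Itga7, the laminin receptor chain best known from skeletal and smooth muscle, took a similar course over the arrays at smaller size. Its level was 8.41, 8.37, 8.33 and 8.32 in Dom/Dom and 8.57, 8.11, 8.31 and 8.22 in wild type, with wild-type replicate 1 again the highest array. The difference was 0.06 ± 0.10 (SE; limma adjusted p = 1.00; 0.312 with the block and without pair 1). Itgb4, the beta chain that joins laminin to keratin filaments in the hemidesmosomes of epithelia, was lower in Dom/Dom in 4 of 4 pairs. Its level was 9.28, 8.62, 8.83 and 8.75 in Dom/Dom, against 9.37, 8.92, 9.02 and 8.98 in wild type. Replicate 1 was the highest array of either genotype, so that the groups overlapped although every pair pointed down. The difference was -0.20 ± 0.15 (SE; 95% interval from -0.53 to 0.13; limma adjusted p = 1.00). With the block its SE was 0.05 (limma adjusted p = 0.155). Without pair 1 the difference was -0.24 (limma adjusted p = 0.0492 with the block, added after seeing the data). That is 1.18-fold lower in Dom/Dom, against 1.15-fold over all 8 arrays.

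Itga5 is the alpha chain of the main fibronectin receptor, and in mouse its loss impairs survival of cranial crest cells. Its level was 12.04, 12.21, 12.19 and 12.15 in Dom/Dom, against 12.28, 11.85, 11.76 and 11.73 in wild type. All Dom/Dom arrays lay above wild-type replicates 2, 3 and 4 and below wild-type replicate 1. The difference was 0.24 ± 0.12 (SE; 95% interval from -0.02 to 0.51; limma adjusted p = 0.933, or 0.418 when blocked). Pair 1 gave -0.24 and pairs 2, 3 and 4 gave 0.36, 0.43 and 0.43. Without pair 1 it was 0.40 ± 0.05 (SE; limma adjusted p = 0.0104 with the block, added after seeing the data, and 0.0585 without). That is 1.32-fold higher in Dom/Dom, against 1.18-fold over all 8 arrays. Fn1, which encodes fibronectin, averaged 14.18 ± 0.05 in Dom/Dom cultures and 14.09 ± 0.09 in wild-type cultures (SD, n = 4 each; limma adjusted p = 1.00), and did not pass without pair 1 (adjusted p = 0.250 with the block).

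Itgb3 pairs with Itgav as a vitronectin receptor and with Itga2b as the fibrinogen receptor of platelets. Its level was 8.96, 9.58, 9.52 and 9.65 in Dom/Dom and 9.46, 9.26, 9.66 and 9.69 in wild type, and Dom/Dom replicate 1 was the lowest array. The difference of -0.09 ± 0.16 (SE; limma adjusted p = 1.00) changed sign to 0.05 without pair 1. Itga2b had the smallest difference of the 10, at 0.01 ± 0.10 (SE; 95% interval from -0.21 to 0.22), with Dom/Dom arrays between 8.74 and 9.05 and wild-type arrays between 8.69 and 9.01. Vtn, which encodes vitronectin, differed by -0.05 (limma adjusted p = 1.00).

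**Figure D2:**
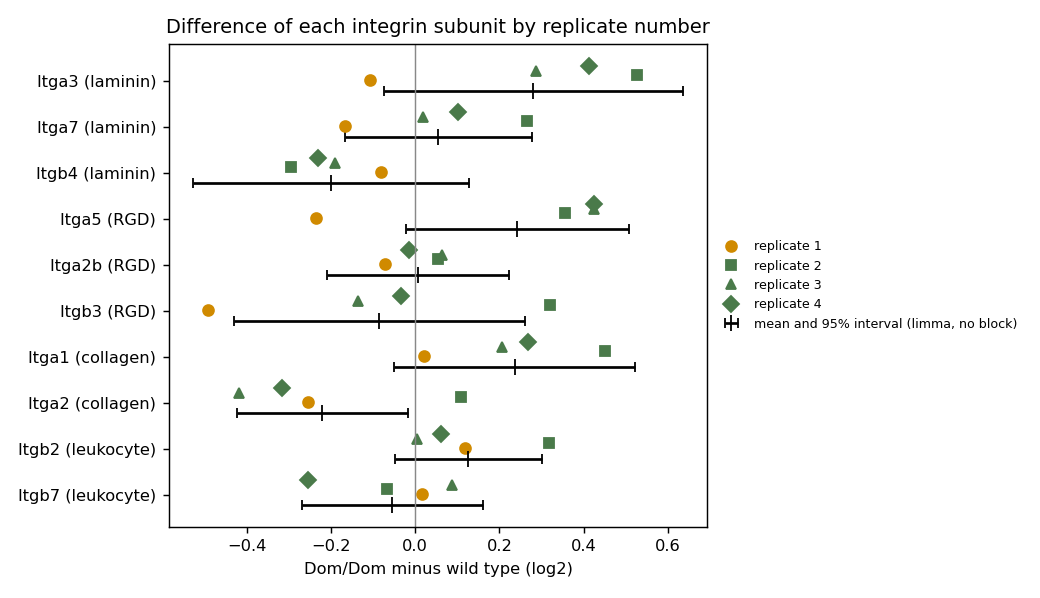
Dom/Dom minus wild type (log2) of each integrin subunit for every replicate number (orange for replicate 1, green for replicates 2 to 4), with the mean and its 95% interval from limma without a block in black. Replicate 1 is below 0 for Itga3 (-0.11) and Itga5 (-0.24), whereas replicates 2 to 4 lie between 0.29 and 0.53.

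The collagen receptor chains, both on chromosome 13, had differences of opposite sign. Itga1, which binds basement membrane collagen and is abundant in smooth muscle, was higher in Dom/Dom in 4 of 4 pairs. Its level was 8.83, 9.11, 9.04 and 9.38 in Dom/Dom, against 8.81, 8.66, 8.84 and 9.11 in wild type. The groups overlapped, and replicate 4 was the highest array of each genotype. The difference was 0.24 ± 0.13 (SE; 95% interval from -0.05 to 0.52; limma adjusted p = 1.00, or 0.219 when blocked). The pairs gave 0.02, 0.45, 0.21 and 0.27. Without pair 1 the difference was 0.31 (limma adjusted p = 0.0446 with the block, added after seeing the data). That is 1.24-fold higher in Dom/Dom, against 1.18-fold over all 8 arrays.

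Itga2, a receptor for fibrillar collagen on epithelia and platelets, had the lowest unadjusted p of the 10. Its level was 8.30, 8.46, 8.15 and 8.30 in Dom/Dom, against 8.56, 8.36, 8.57 and 8.61 in wild type. It was lower in Dom/Dom in 3 of 4 pairs, with pair 2 at 0.11 the other way. The difference was -0.22 ± 0.09 (SE; 95% interval from -0.43 to -0.02; limma adjusted p = 0.709, or 0.343 when blocked). It did not pass without pair 1 (adjusted p = 0.308 with the block). Of the 11 measured collagen chains 0 passed with or without the block, and their median difference was -0.003. The largest differences were those of Col1a1 (0.26 ± 0.13, SE; limma adjusted p = 0.966) and Col3a1 (0.17 ± 0.10, SE; adjusted p = 1.00), both chains of fibrillar collagens.

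Of the leukocyte chains, Itgb2, the common beta chain of the leukocyte integrins, averaged 7.63 ± 0.05 in Dom/Dom cultures and 7.50 ± 0.11 in wild-type cultures (SD, n = 4 each), a difference of 0.13 ± 0.08 (SE; limma adjusted p = 1.00). It was higher in Dom/Dom in 4 of 4 pairs, by 0.12, 0.32, 0.003 and 0.06. Itgb7, which pairs with Itga4 or Itgae on lymphocytes, averaged 8.03 ± 0.16 in Dom/Dom cultures and 8.09 ± 0.11 in wild-type cultures (SD, n = 4 each), a difference of -0.05 ± 0.10 (SE; adjusted p = 1.00). Of 7 measured leukocyte markers 0 passed, and 2 were above 8.13 on average. Ptprc, the pan-leukocyte surface phosphatase, averaged 7.01 ± 0.05 in Dom/Dom cultures and 7.04 ± 0.07 in wild-type cultures (SD, n = 4 each). The largest differences of these markers were those of Cd68 (0.18, limma adjusted p = 1.00) and Fcer1g (-0.10, adjusted p = 1.00). Taking all 10 subunits, 3 had the same sign in 4 of 4 pairs (Itga1, Itgb2 and Itgb4), or 3 in 10, beside 21.1% of all genes. Without pair 1, the 3 remaining arrays per genotype did not overlap for 4 of 10 subunits (Itga3, Itga5, Itga7 and Itgb4), beside 13.5% of all genes.

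Other integrin chains outside the list were measured for 3 of 16 genes, and the rest, among them Itgb1, Itgav, Itga4 and Itga6, were not analysed here. Itgb8, which pairs with Itgav and activates latent TGF-beta, averaged 11.64 ± 0.22 in Dom/Dom cultures and 11.47 ± 0.24 in wild-type cultures (SD, n = 4 each; difference 0.17, limma adjusted p = 1.00). Itgb5, another partner of Itgav, averaged 11.78 ± 0.11 in Dom/Dom cultures and 11.87 ± 0.19 in wild-type cultures (SD, n = 4 each; difference -0.08, adjusted p = 1.00). In wild-type replicate 1 Itgb5 was at 12.11, above the other 7 arrays at 11.64 to 11.88. Itgae, the lymphocyte chain that binds E-cadherin, differed by 0.0003 (adjusted p = 1.00).

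Since Itga3 had both the largest difference and the widest spread of the 10, the genes closest to it over the 8 arrays were sought by Pearson correlation of levels. These were Cavin1, a coat protein of caveolae (r = 0.983), Stx11, a syntaxin known from immune cells (0.971), and Il24, a cytokine (0.970). Cavin1 was at 10.21, 10.14, 10.04 and 10.07 in Dom/Dom, against 10.23, 9.76, 9.81 and 9.76 in wild type, so wild-type replicate 1 joined the Dom/Dom arrays here too. These values describe 8 arrays of 2 genotypes and share the high wild-type replicate 1. Without the 2 arrays farthest from the median of Itga3 (wild-type replicates 1 and 2), r was 0.984, 0.960 and 0.953 over 6 arrays. Wild-type replicates 3 and 4 (9.68 and 9.69 for Itga3) lay nearly as far and stayed in. The r over 6 arrays therefore still holds the gap between the genotypes and cannot tell it from likeness within a genotype. Among the integrins, Itga5 (r = 0.860) and Itga7 (0.858) were closest to Itga3, with r of 0.803 and 0.840 over those 6 arrays. Among all genes they ranked 77 and 80 over the 8 arrays. Within Dom/Dom, replicate 1 was the highest array for Itga3 (10.29) and the lowest for Itga5 (12.04). Among the 10, Itgb4 was closest to Itgb7 (r = 0.858) and ran against Itga1 (r = -0.606). Replicate 1 was the highest array of each genotype for both Itgb4 and Itgb7, and Itgb7 stood below 8.13 on average.

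**Figure D3:**
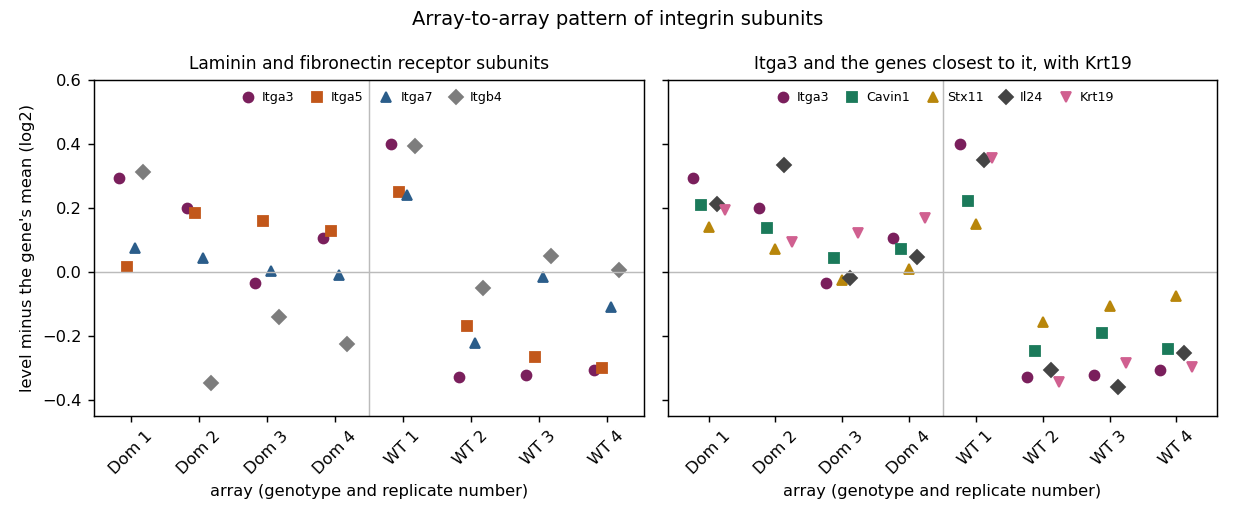
Level of each gene minus its own mean over the 8 arrays (log2), by genotype and replicate number, for 4 integrin subunits (left) and for Itga3 with its 3 closest genes and the keratin gene Krt19 (right). Itga3, Itga5, Itga7 and Krt19 are highest in wild-type replicate 1 and lower in the other wild-type arrays.

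Markers of other cell types varied beside these patterns. Of the 11 measured epithelial markers of 18 listed, 10 were lower in Dom/Dom on average and 1, Krt19, was higher, with a median difference of -0.16. Krt19, a keratin of simple epithelia, was at 11.27, 11.18, 11.20 and 11.25 in Dom/Dom, against 11.44, 10.74, 10.80 and 10.79 in wild type (r with Itga3 = 0.956 over 8 arrays). As for Itga3 and Itga5, wild-type replicate 1 was the highest array and the other wild-type arrays the lowest. The mean level of the 11 markers ran from 8.99 to 9.38 in Dom/Dom and from 9.22 to 9.48 in wild type, with replicate 1 the highest array of each genotype. Of the 11, 0 passed in the fit with equal weights and no block, and 1 fell with the block, the keratin gene Krt8 (difference -0.50, limma adjusted p = 0.232; 0.0164 with the block). With array weights 2 fell, Krt8 and Krt5 (adjusted p = 0.0227 and 0.0392). With the block and without pair 1, Krt8 and Krt5 fell and Krt19 rose, in a fit that called 6.93% of all genes. Of the hemidesmosome partners of Itgb4, 0 of 4 passed with equal weights, with or without the block, and 1 of 4, Krt5, fell with array weights. Krt5, a keratin of stratified epithelia, differed by -0.83 (limma adjusted p = 0.554), with 0.38 in pair 1 and -0.82, -1.19 and -1.69 in pairs 2 to 4, and Krt14 by -0.39 (adjusted p = 0.786).

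Muscle genes also varied by pair. The mean level of 5 measured muscle markers of 12 listed ran from 8.62 to 9.09 in Dom/Dom and from 8.37 to 8.62 in wild type, and the median difference was 0.02 in pair 1 and 0.73, 0.39 and 0.48 in pairs 2 to 4. Of the 5, 2 stood above 8.13 on average, and 3 did not, Myf5 and Myog among them. With equal weights 0 passed, with or without the block, and with array weights 2 rose, Myf5 (adjusted p = 0.00935) and Myocd (adjusted p = 0.0458). Myocd, a coactivator of smooth muscle genes, differed by 0.63 (limma adjusted p = 0.353), and the myogenic factor Myf5 by 0.60 (adjusted p = 0.201). With the block and without pair 1 Myocd, Myf5 and Myog rose (limma adjusted p = 0.00266, 0.00309 and 0.0219), in a fit that called 6.93% of all genes. Crest markers differed by pair as well: the neurotrophin receptor gene Ngfr differed by 0.06 in pair 1 and by -0.90, -1.51 and -1.43 in pairs 2 to 4 (limma adjusted p = 0.267), whereas Sox10 differed by -1.69 in pair 1 and by -0.52, -1.37 and -1.20 in the others. Of the 4 measured endothelial markers 0 passed, and their largest differences were those of Cldn5 (-0.09) and Pecam1 (-0.03), both with adjusted p = 1.00. Of 12 megakaryocyte and platelet markers, 0 were among the 6855 genes with a single symbol. The part of epithelial and muscle cells in the integrin values was not tested.

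Of the ligand and partner genes of integrins, 1 passed over all arrays with equal weights, and Krt5, a hemidesmosome partner, joined it with array weights. Among laminin chains, 1 of 5 fell: Lama4, the alpha chain of vascular and Schwann cell laminins, was at 8.19, 8.39, 8.36 and 8.60 in Dom/Dom, against 10.39, 10.38, 11.31 and 11.44 in wild type. The groups did not overlap, at a difference of -2.50 ± 0.24 (SE; limma adjusted p = 0.00152), or 5.64-fold lower in Dom/Dom, and it passed in all 24 alternatives run. The other measured laminin chains (Lama2, Lamb1, Lamb3 and Lamc1) differed by -0.07 to 0.11. The laminin receptor chains, with differences from -0.20 to 0.28, did not pass. Among 5 RGD-bearing and related ligands, 0 passed over all arrays, and the largest differences were those of the growth factor genes Tgfb3 (0.20, limma adjusted p = 1.00) and Tgfb2 (0.16, adjusted p = 1.00), whose latent forms bind integrins. With the block and without pair 1, a fit added after seeing the data, 2 of the 5 rose, Tgfb2 and Tgfb3. In the same fit 1 fell, Edil3, an integrin-binding matrix protein. That fit called 6.93% of all genes.

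Of the cell-surface ligands 0 of 4 passed over all arrays, of the adaptors 0 of 8, and of the focal adhesion genes 0 of 12. The largest differences of ligands were those of F11r, a junctional adhesion molecule bound by leukocyte integrins (0.31 ± 0.13, SE; limma adjusted p = 0.701), and Madcam1, the gut ligand of Itgb7 with Itga4 (0.22 ± 0.10, SE; adjusted p = 0.858). At the integrin tails, the endocytic adaptor gene Dab2 differed by 0.26 (adjusted p = 0.765) and Sharpin, an inhibitor of integrin activation, by -0.21 (adjusted p = 0.896). Of the focal adhesion genes, 10 of 12 were above 0, with a median of 0.07, and Actn2 (0.32, adjusted p = 0.644) and Tns1 (0.25, adjusted p = 0.951), which encode an alpha-actinin and tensin, had the largest differences. With the block and without pair 1, F11r, Madcam1, Dab2, Actn1, Actn2 and Tns3 rose. These were 2 of 4 ligands, 1 of 8 adaptors and 3 of 12 focal adhesion genes. That fit was added after seeing the data and called 6.93% of all genes. Of 4 lateral partners, 0 passed in any of these fits, and Cd47, an integrin-associated receptor, differed by 0.07 and Bsg, basigin, by -0.05 (adjusted p = 1.00 each).

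**Figure D4:**
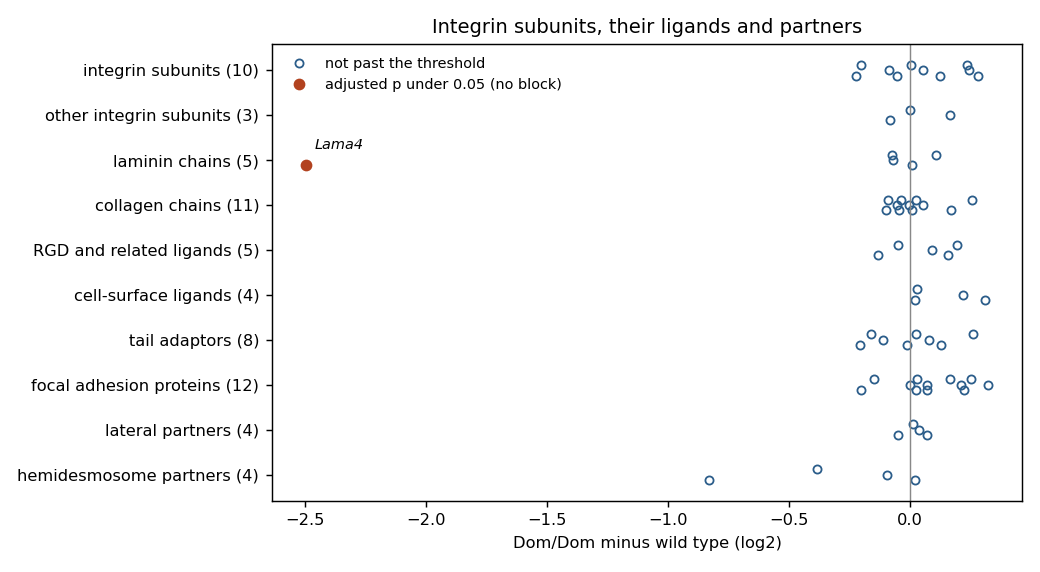
Dom/Dom minus wild type (log2) of each measured gene, by role, with the number of measured genes in brackets; filled points passed limma's adjusted p of 0.05 without a block and with equal array weights, and open points did not. Lama4 at -2.50 is the single filled point, and all 10 integrin subunits lie between -0.22 and 0.28.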

How the data were processed

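The authors deposited log2 expression values per probe set for 8 Affymetrix Mouse Gene 1.0 ST arrays (4 Dom/Dom, 4 wild type), made from 250 ng of total RNA per the labels' protocols. Per the submitters' processing notes RMA and Partek were used, and their versions are not given in the sources used here. As background, RMA subtracts a modelled background, makes the arrays' distributions alike and shrinks differences of dim probe sets. No detection calls came with the values, and the number of arrays limits precision.

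The table held 16381 probe sets, of which 7416 had 1 gene symbol in the platform annotation, 509 several and 8456 none. Genes with several probe sets were represented by the brightest, which left 6855 genes, 97.9% of them on chromosomes 1 and 10 to 16. A RefSeq table of GRCm38.p6 matched 6829 of them by gene ID. Throughout, a measured gene is one of the 6855. Probe sets with no symbol or with several were not used, whatever gene they read. Array medians lay between 8.60 and 8.78, and 0 arrays were identical.

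Genotypes were compared over all 6855 genes with limma 3.58.1 in R 4.3.3 (moderated two-sided test with genotype as its single term, Benjamini-Hochberg adjustment, threshold 0.05). A call is an adjusted p under that threshold. The fit was tested on simulated data with known changes and noise drawn independently for each array. That test did not cover changes as small as those of the integrins, or deviations shared by same-numbered arrays. Genotype and replicate number came from the sample titles. Same-numbered arrays correlated above 0.1 in every pair, so the numbers were taken as pairs, although no label says so and arrays of different numbers reached 0.381. Alternatives were the replicate block, each array or pair left out, all probe sets, the mean of probe sets, a filter on dim genes, a trended robust prior, array weights, median centring and renewed quantile normalisation. The block with a pair left out was added after seeing the data.

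The integrin list, the lists of ligands, partners and markers, and the tests were chosen with earlier results of these data known. The genes named were all 10 subunits, the other measured integrin chains, Sox10, up to 4 genes past the threshold per list or else the 2 with the largest difference, direct ligands of a subunit, and the 3 genes closest to Itga3; Actn1, Tns3, Krt8, Krt19, Edil3, Ngfr, Myog, Ptprc, and the laminin chains other than Lama4 were named after their values were seen.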

Additional observations from a re-analysis of the deposited data

Results flagged for a closer look

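Itga3 was high in wild-type replicate 1, at 10.40 against 9.67, 9.68 and 9.69 in the other wild-type arrays. By Dixon's test its gap to the nearest array was too large a part of the range of the 4 arrays. Among 28 sets of 4 arrays tested (10 integrin subunits, 3 other integrin chains and Sox10, in both genotypes) it was the 1 such array, where chance flags about 1 set in 20.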

How the results depend on the processing

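0 of 10 integrin subunits passed in 23 of 24 alternatives, and 4 passed with the replicate block and pair 1 left out. Itga1, Itga2, Itga3, Itga5, Itgb2 and Itgb4 kept their direction in the alternatives that measured them (Itgb2 and Itgb7 were below the filter on dim genes), and the median difference of the 10 ran from -0.04 to 0.09. That median was lowest without wild-type replicate 2 and highest without pair 1. Differences that changed sign were never called. With 1 array or pair left out, Itga2b ran from -0.0627 to 0.0613, Itga7 from -0.0153 to 0.144, Itgb3 from -0.221 to 0.0698 and Itgb7 from -0.121 to 0.0122. In the replicate block the sign changed for Itga2b without pair 2 (-0.00838) or 3 (-0.0116), Itga7 without pair 2 (-0.0153), Itgb3 without pair 1 (0.0502) and Itgb7 without pair 4 (0.0122). The 33 called genes became 103 with the replicate block, 190 with array weights, 4 to 75 with 1 array or pair left out, and 475, 112, 15 and 13 with the block and pair 1, 2, 3 or 4 left out. The lowest adjusted p of an integrin was 0.0818 with 1 array left out (Itga3, without wild-type replicate 1) and 0.0763 with array weights (Itga5). Sox10 ran from -1.42 to -1.02 with 1 array or pair left out. It lost its call without an array or pair of replicate 3 or 4, also when blocked without pair 3 (-1.14) or 4 (-1.19), and Erbb3 lost its call likewise and without pair 2. Fits with fewer arrays have fewer degrees of freedom. Without detection calls, brightness above background was judged by the receptor genes alone.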
